A study of Mus musculus with 2 samples.

Results

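The imprinted *Dlk1-Dio3* locus of mouse chromosome 12 was examined in the non-polyadenylated (NPA) RNA of embryonic stem cells (ESCs) and of neuronal progenitor cells (NPCs) derived from them. The genes were taken by name: *Dlk1*, *Meg3*, *Rtl1*, *Rian*, *Mirg* and *Dio3*, which are 6 of the 37310 genes of GENCODE release M1. They lie at chr12:110691033-111519307 of mm9, a span of 828.275 kb, and reads were counted on both strands over the exons, the introns and the gaps between the genes. The ESCs were of the male R1 line at passage 18, grown with leukemia inhibitory factor on mitomycin C-treated mouse fibroblast feeders. The NPCs came from the same cells, through 4 days as embryoid bodies, and were gathered on day 7. The labels name no transgene and no drug treatment of either cell type. Each gave 1 strand-specific library, of 4271306 mapped reads in ESCs and 4399729 in NPCs. Polyadenylated RNA had been depleted before, so reads of protein-coding genes do not measure the levels of their polyadenylated mRNA. Values are given as reads and as reads per 1000000 mapped reads (RPM), where 1 read is 0.234 RPM in ESCs and 0.227 RPM in NPCs. All intervals are 95% intervals that cover counting error only, and PCR copies of 1 molecule cannot be told apart from separate molecules. With 1 library per cell type there is no replicate check, no test between cell types was made, and every ratio compares these 2 libraries.

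At this locus the genes on the paternal chromosome make proteins and those on the maternal chromosome make RNAs that are not translated. *Dlk1* (a transmembrane relative of the Notch ligands), *Rtl1* (a retrotransposon-derived protein needed in the placenta) and *Dio3* (the deiodinase that inactivates thyroid hormone) are expressed mainly from the paternal copy. The long RNA *Meg3*, an RNA antisense to *Rtl1*, the snoRNA host *Rian* and the miRNA host *Mirg* are expressed from the maternal copy, in the same direction and with their small RNAs in their introns and in the stretches between them. C/D snoRNAs keep a C box near their start and a D box near their end, and most of them guide the methylation of other RNAs. miRNAs are cut from hairpins first by Drosha and then by Dicer, which leaves the flanking RNA behind. Loss of expression from the maternal RNA genes is known from some mouse pluripotent stem cell lines. The allele of origin was not measured in these libraries.

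The small RNAs on which the results turn are shown first. The 4 annotated snoRNA genes of the locus with the most reads, the copy at chr12:110895335-110895406 that had no read, and an unannotated cluster in an intron of *Rian* are given on the plus strand of mm9, with the C box (TGATGA) and the last D box (CTGA) in capitals. In the annotated genes, boxes were searched on this strand as TGATGA in the first 20 nt and CTGA in the last 20 nt. For the unannotated cluster, the first TGATGA from its most common read start on was taken, and the last CTGA in a window behind it. The stretch shown for it was cut from just before that start to just after that CTGA. The reads of the cluster spanned chr12:110881049-110881143.
SNORD113 copy at chr12:110923172-110923244: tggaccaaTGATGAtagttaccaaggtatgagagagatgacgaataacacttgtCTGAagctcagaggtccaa
SNORD113 copy at chr12:110887827-110887898: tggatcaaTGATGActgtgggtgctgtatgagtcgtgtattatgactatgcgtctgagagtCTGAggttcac
AF357355 at chr12:110892837-110892908: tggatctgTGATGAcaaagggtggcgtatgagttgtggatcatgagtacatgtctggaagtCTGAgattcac
AF357341 at chr12:110919729-110919803: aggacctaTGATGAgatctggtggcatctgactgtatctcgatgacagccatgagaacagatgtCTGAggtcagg
SNORD113 copy at chr12:110895335-110895406, with no CTGA in its last 20 nt: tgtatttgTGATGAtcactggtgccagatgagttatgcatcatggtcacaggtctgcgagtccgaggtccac
Unannotated cluster at chr12:110881048-110881118: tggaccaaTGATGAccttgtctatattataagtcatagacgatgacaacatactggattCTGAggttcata

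For the miRNAs, the arm behind which most reads started and 2 arms opposite *Rtl1* are given as mature RNA from RefSeq (GRCm38.p6), with the seed, bases 2 to 8, in capitals. Their 3 seeds differ. They were placed in mm9 by their sequence.
miR-666-3p at chr12:110955350-110955371: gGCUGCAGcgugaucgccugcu
miR-431-3p at chr12:110828712-110828733: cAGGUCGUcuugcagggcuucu
miR-127-3p at chr12:110831098-110831119: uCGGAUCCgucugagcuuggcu

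Before the locus itself, the cell type labels were set against marker genes. The ESC library held 2623 reads of *Pou5f1*, which encodes the pluripotency factor Oct4, and the NPC library held 724. For the marker counts that follow, among all 14859 genes with at least 10 reads 25.5% were more than 2-fold higher in NPCs and 13.3% lower. Of 10 pluripotency markers, 8 were more than 2-fold lower in NPCs, and their sum was 2270 RPM in ESCs and 642 RPM in NPCs. The 9 annotated neural progenitor markers summed to 88.7 RPM in ESCs and 93.9 RPM in NPCs. Of the 6 with at least 10 reads, 2 were more than 2-fold higher in NPCs, *Zic1* with 1 and 22 reads and *Pax6* with 1 and 12 reads. None was more than 2-fold lower. By RPM 4 of the 6 were higher in NPCs, among them *Nes* with 66 and 121 reads. The 2 lower were *Tubb3* with 109 and 87 reads and *Msi1* with 99 and 60. *Ncam1*, the neural marker with the most reads in both libraries together, had 100 ESC and 104 NPC reads. *Fabp7* had 0 and 2. Markers of extraembryonic endoderm went from 326 RPM in ESCs to 7756 RPM in NPCs. All 9 of them with at least 10 reads were more than 2-fold higher there, with *Col4a1*, a basement membrane collagen, at 856 and 20753 reads. *Ttr* had 0 reads in ESCs and 37 in NPCs. The NPC library thus carried a strong endoderm signal and low levels of neural markers, so NPC is used here as the name of a library. Fibroblast markers, which feeders could bring, summed to 53.8 RPM in ESCs and 61.4 RPM in NPCs, with *Col1a2* the most abundant in both libraries together (51 and 165 reads), *Thy1* the most abundant in ESCs (79 and 12 reads), and *Fap* and *Lum* at 0 in both. Of the 6 fibroblast markers with at least 10 reads, 1 was more than 2-fold higher and 2 more than 2-fold lower in NPCs, beside 25.5% and 13.3% among all genes. The part of these cell mixtures in the results at the locus was not tested, and fewer cells of a type cannot be told apart from less RNA per cell.

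Reads of the locus filled 1 plus strand stretch from *Meg3* to *Mirg*. Between the start of *Meg3* and the end of *Mirg*, a distance of 208.455 kb, the plus strand gave 3731 reads in ESCs and 4086 in NPCs. No read of either library lay on the minus strand of this stretch, and a count of 0 allows a share of up to 0.0804% in ESCs and 0.0734% in NPCs. Plus strand reads were present in both libraries in each of the 21 windows of 10 kb. The last read of the stretch ended 264 nt before the annotated end of *Mirg*, and 1 ESC read and 0 NPC reads followed in the next 5 kb, 335 nt past that end. Of the plus strand reads, 97.6% in ESCs and 96.9% in NPCs had a sequence that occurs once in mm9. On either side there were few reads. The 77664 nt between *Dlk1* and *Meg3* had 1 read in ESCs and 0 in NPCs on the plus strand. The 529.612 kb between *Mirg* and *Dio3* had 19 and 4. Over the whole span from *Dlk1* to *Dio3*, the plus strand held 93.7% (Clopper-Pearson, 92.9 to 94.5) of the reads in ESCs and 96.7% (96.1 to 97.2) in NPCs. Most of the minus strand reads, 231 of 251 in ESCs and 128 of 143 in NPCs, lay in 2 neighbouring unannotated clusters between *Mirg* and *Dio3*. Of these cluster reads 99.4% could be placed elsewhere in the genome as well.

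**Figure D1:**
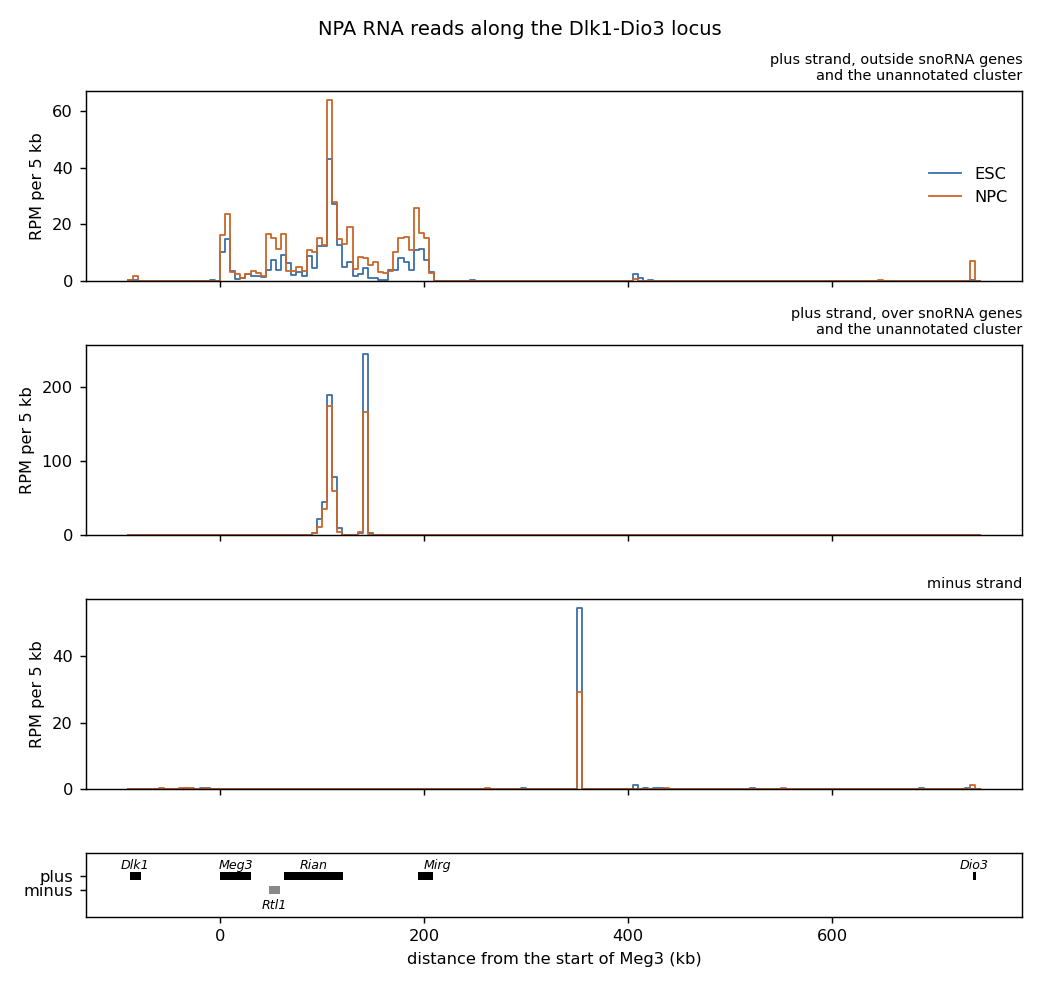
RPM in bins of 5 kb (y axis) against the distance from the start of Meg3 in kb (x axis), for ESCs and NPCs, with plus strand reads outside and over the snoRNA genes and the unannotated cluster, minus strand reads, and the 6 genes by strand. The plus strand signal fills the 208.455 kb from Meg3 to Mirg in both libraries, and the minus strand has 0 reads there.

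The plus strand reads of this stretch fell into parts that differed between the libraries in opposite directions. Over the snoRNA genes there were 2353 reads in ESCs (63.1% of the stretch) and 1852 in NPCs (45.3%), a log2 ratio (NPC over ESC) of -0.39 (-0.48 to -0.30). The unannotated cluster in the *Rian* intron had 190 and 152 reads, a log2 ratio of -0.36 (-0.68 to -0.05). All other plus strand reads numbered 1188 in ESCs and 2082 in NPCs, or 278 and 473 RPM, which is 1.70-fold (1.58 to 1.83) higher in NPCs. The sum of all 3 parts was 1.06-fold (1.02 to 1.11) higher in NPCs. This split was made after the values were seen. Over all 14859 genes that had 10 or more reads the median log2 ratio was 0.35, so ratios are also given relative to it. Relative to the median gene, the log2 ratio was -0.73 for the snoRNA genes, 0.42 for the other reads and -0.26 for their sum, so the direction of the sum depends on the scale. The snoRNA reads began at few positions, 64 in ESCs and 69 in NPCs, and with each position counted once their log2 ratio was -0.16 (-0.67 to 0.35). The reads of the unannotated cluster began at 5 and 4 positions, with a log2 ratio of -0.59 (-2.93 to 1.62) in the same way, an interval that holds 0. The other reads began at 863 and 1443 positions, with a log2 ratio of 0.47 (0.35 to 0.59).

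Of the 6 genes, 5 had at least 10 reads over their exons in both libraries together. By RPM, 3 of these were more than 2-fold higher in NPCs (*Dlk1*, *Mirg* and *Dio3*) and 0 were more than 2-fold lower, beside 25.5% higher and 13.3% lower among all 14859 genes (38.8% apart in either direction) and 30.1% higher and 18.9% lower among 143 lincRNA genes. The balance over all genes depends on the scale, with 2472 higher and 2844 lower when scaled by the median of gene ratios, and 1962 and 1916 with each start position counted once, against 3795 and 1969. For *Mirg* and *Dio3* the interval of the fold was above 1. Scaled by the median of gene ratios, the log2 ratio of *Mirg* was 0.80 (0.23 to 1.39), below 2-fold. The genes are described below in the order of the maternally expressed RNAs, their small RNAs, and the protein-coding genes.

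*Meg3* (ENSMUSG00000021268.10, chr12:110779211-110809936, plus strand) is the long RNA at the head of the maternal unit. Its exons, 18089 nt that include a long retained-intron transcript, had 93 reads in ESCs and 117 in NPCs, or 1.20 and 1.47 RPM per kilobase of exon (RPKM). The exon ratio was 1.22-fold (0.922 to 1.62) and its interval holds 1. The log2 ratio was 0.29 by library total and -0.05 when scaled by the median of gene ratios. The introns of *Meg3* had 51 reads in ESCs and 102 in NPCs, 1.94-fold (1.37 to 2.77) higher in NPCs. Introns held 35.4% (27.6 to 43.8) of the reads over the gene in ESCs and 46.6% (39.8 to 53.4) in NPCs, beside a median of 14.6% and 13.0% over 9652 genes with at least 50 exon reads. Among 143 lincRNA genes with at least 10 reads, the median level was 0.933 RPKM in ESCs and 1.03 RPKM in NPCs, a little below *Meg3*. The 3 genes with a log2 ratio nearest to that of *Meg3* over the 2 libraries were *Heca* (144 and 181 reads), *Mmp15* (54 and 68 reads) and *Neurl4* (185 and 233 reads), and 421 of the 5107 genes with similar read numbers lay within 0.1 of it on the log2 scale.

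The RNA antisense to *Rtl1* has no gene of its own in this annotation and was counted as plus strand reads over *Rtl1*. It carries miRNAs whose targets lie in the *Rtl1* transcript itself. ESCs had 52 such reads and NPCs 145, or 12.2 and 33.0 RPM, a 2.71-fold (1.96 to 3.79) higher value in NPCs. Over the exons of *Rtl1* alone there were 36 and 98. In the gap between *Meg3* and *Rtl1* the reads numbered 28 and 71, 2.46-fold (1.57 to 3.96) higher in NPCs. In the gap between *Rtl1* and *Rian* they numbered 21 and 48, 2.22-fold (1.30 to 3.90) higher. The reads of this last gap began at only 17 positions in ESCs and 29 in NPCs. Those opposite *Rtl1* began at 45 and 111, and those between *Meg3* and *Rtl1* at 22 and 55. These 3 neighbouring stretches thus differed in the same direction. Over the exons of *Rtl1* and relative to the median gene, the log2 ratio was 1.06.

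*Rian* (ENSMUSG00000091793.1, chr12:110842155-110899919, plus strand) is the host of C/D snoRNAs. Its annotated exons, 8197 nt, had 1163 reads in ESCs and 1260 in NPCs, a 1.05-fold (0.970 to 1.14) ratio, but 2 snoRNA genes overlap these exons. Without the reads over snoRNA genes there were 358 and 497, or 10.2 and 13.8 RPKM, 1.35-fold (1.17 to 1.55) higher in NPCs. Relative to the median gene, this log2 ratio was 0.085 (-0.11 to 0.29), with 0 inside its interval. By this measure *Rian* had the highest level per length of the 3 long RNAs in both libraries. Its introns, again without the snoRNA genes and the unannotated cluster, had 234 reads in ESCs and 282 in NPCs, a 1.17-fold (0.980 to 1.40) ratio. Per length, these intron reads were 1.11 and 1.29 RPM per kb. Of the reads over the gene outside the snoRNA genes and the unannotated cluster, introns held 39.5% in ESCs and 36.2% in NPCs.

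Reads continued downstream of the annotated end of *Rian*. Between *Rian* and the last snoRNA gene there were 91 reads in ESCs and 252 in NPCs outside snoRNA genes, 2.69-fold (2.11 to 3.46) higher in NPCs. Between the last snoRNA gene and *Mirg*, where 23 of the 52 plus strand miRNA genes lie, there were 156 and 386, 2.40-fold (1.99 to 2.91) higher. Per length these were 0.804 RPM per kb in ESCs and 1.93 RPM per kb in NPCs. The authors removed reads in repeats, so these densities are over whole lengths and not over the sequence that could hold reads. In 20 of the 21 windows of 10 kb from *Meg3* on, the NPC value outside snoRNA genes was higher in RPM. The exception, the window from 20 kb after the start of *Meg3*, had 15 reads in both libraries. The window with the most reads, from 100 kb on and within *Rian*, had 236 reads in ESCs and 336 in NPCs. The window with the fewest in ESCs, from 150 kb on and just past the last snoRNA gene, had 5 and 43, the highest log2 ratio of the 21, 3.06. The first window of *Meg3* had 106 and 175, and the windows at 40 and 50 kb, which hold the RNA opposite *Rtl1*, had 23 and 80 and then 47 and 116. The windows differed by unequal amounts, with log2 ratios of 0.10 at 110 kb, 0.46 at 160 kb and 1.29 at 180 kb. For comparison, among 9995 genes with at least 10 intron reads the median log2 ratio of the intron reads was 0.21. Of these genes, 58.7% were higher in NPCs by intron reads and 18.8% more than 2-fold higher.

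*Mirg* (ENSMUSG00000091158.1, chr12:110973191-110987665, plus strand) is the miRNA host at the end of the unit. Its exons had 38 reads in ESCs and 86 in NPCs, or 2.80 and 6.16 RPKM, 2.20-fold (1.48 to 3.31) higher in NPCs. Its introns had 66 and 96 reads, 1.41-fold (1.02 to 1.96) higher. These intron reads began at 57 and 74 positions. Their log2 ratio was 0.50 (0.03 to 0.97), with the median of all genes, 0.35, inside the interval. More reads lay in the introns of *Mirg* than in its exons in both libraries, 63.5% (53.4 to 72.7) in ESCs and 52.7% (45.2 to 60.2) in NPCs. With each start position counted once, the exon log2 ratio of *Mirg* was 0.51 (-0.12 to 1.15), against 1.14 with all reads.

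**Figure D2:**
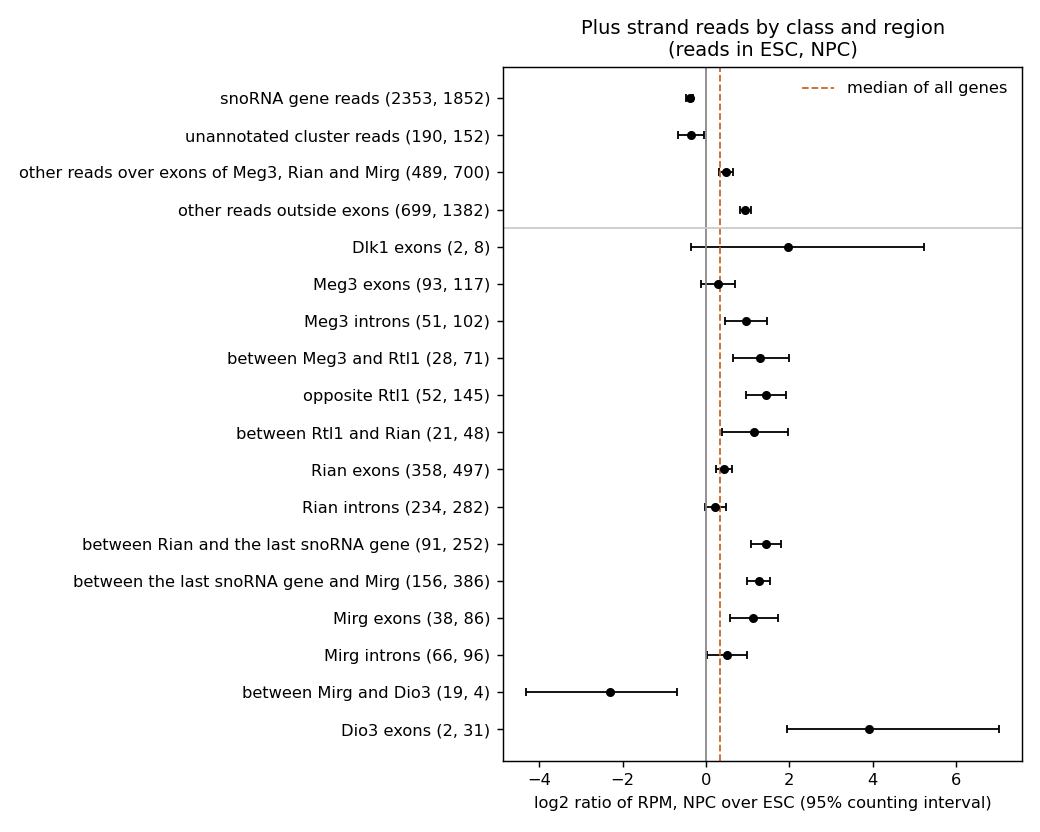
Log2 ratio of RPM, NPC over ESC (x axis), for classes of plus strand reads (upper part) and for exons, introns and gaps in order along the locus (lower part), with reads in ESCs and NPCs in brackets. Points are ratios, bars are 95% counting intervals, the solid line marks 0 and the dashed line the median of all genes, 0.35. Only the snoRNA reads, the unannotated cluster and the stretch between Mirg and Dio3 lie below 0.

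The snoRNA genes gave most of the reads of the locus in ESCs. GENCODE M1 places 23 of them here, 13 within *Rian* and 10 between *Rian* and *Mirg*, and 19 had a read. The plus strand held all of these reads and the opposite strand 0. The SNORD113 copy at chr12:110923172-110923244 had 901 reads in ESCs and 573 in NPCs, a log2 ratio of -0.70 (-0.85 to -0.54). The copy at chr12:110887827-110887898 had 725 and 704, a log2 ratio of -0.09 (-0.24 to 0.07). These 2 copies together held 69.1% of the snoRNA reads in ESCs and 69.0% in NPCs. AF357355 had 299 and 210 reads, with a log2 ratio of -0.55 (-0.81 to -0.29). AF357341 went the other way, with 88 and 128 reads and a log2 ratio of 0.50 (0.10 to 0.91).

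Of the 11 snoRNA genes with at least 10 reads in a library, 8 were lower and 3 higher in NPCs by RPM. The interval lay below 0 for 5, above 0 for 1 and across 0 for 5, and the median log2 ratio was -0.55. Those more than 2-fold lower were the SNORD113 copies starting at 110874222 (92 and 46 reads), 110894555 (40 and 18), 110920594 (52 and 24) and 110925008 (12 and 4). None of the 11 was more than 2-fold higher. The other 3 were the copies at 110884339 (80 and 59 reads), 110889634 (37 and 48) and 110919010 (7 and 14). Of the 148 C/D snoRNA genes elsewhere in the genome, taken by name and with at least 10 reads in a library, 87 were lower in NPCs, 35 more than 2-fold lower and 11 more than 2-fold higher, with a median log2 ratio of -0.36. Lower values in NPCs were thus found in C/D snoRNA genes inside and outside the locus. The number of start positions per copy was between 1 and 12, so with each position counted once single copies have wide intervals. The median log2 ratio of the 11 was then 0.091. The copy at 110923172 turned from -0.70 to 0.31 and AF357355 from -0.55 to 0.091, both with intervals below 0 when all reads were counted. The copy at 110925008 turned from -1.63 to 0.31, that at 110884339 from -0.48 to 0.14 and that at 110889634 from 0.33 to -1.59.

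**Figure D3:**
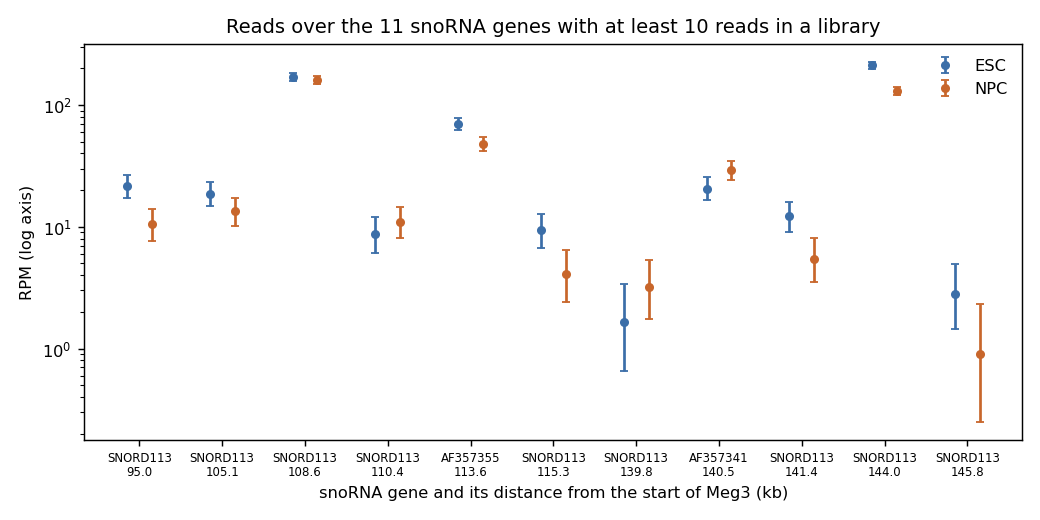
RPM (y axis, log scale) of the 11 snoRNA genes with at least 10 reads in a library (x axis, in order, with the distance from the start of Meg3 in kb). Points are ESCs and NPCs, and bars are exact Poisson 95% intervals. The copies with 725 and 901 reads in ESCs stand highest in both libraries, and 8 of the 11 are lower in NPCs.

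Both boxes were found in 14 of the 23, among them all 11 with at least 10 reads in a library. The 9 without both had at most 4 reads in a library, such as the copy at chr12:110895335-110895406 shown above, with 0 reads in both. Among 2779 tiles of 75 nt from *Meg3* to *Mirg*, 0.288% had both boxes placed in the same way. Reads over the snoRNA genes with a C box started 4 to 6 nt before it in 2282 of 2348 cases in ESCs (97.2%, 96.4 to 97.8) and in 1777 of 1843 in NPCs (96.4%, 95.5 to 97.2). This is where the mature ends of C/D snoRNAs usually lie. The shares rest on the copies with the most reads. Of the 11 genes with at least 10 reads in a library, the copy at 110925008 had 0 of its 12 ESC and 4 NPC reads starting there, and in the other 10 most reads did in both libraries. The unannotated cluster also held both boxes, but they were searched from its read start on and not by the rule used for the genes. The share of tiles with both boxes therefore does not apply to this cluster. Its most common read start, with 95.8% of its reads in ESCs and 91.4% in NPCs, lay 5 nt before a C box, and a D box began 51 nt after that C box. All its reads had a sequence that occurs once in mm9. The boxes were searched after the read starts were seen, and a match of letters does not show that the RNA is a functional snoRNA.

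The miRNA genes had few reads in these libraries, whose fragments were longer than a mature miRNA. Of 57 miRNA genes in the span, 52 are on the plus strand and 30 of these had a read, with 49 reads in ESCs and 72 in NPCs in all. The 5 on the minus strand had 0 on their own strand. Among them, AC121784.4 and AC121784.1 lie over the plus strand arms miR-299a-3p and miR-409-3p. They had 9 and 2 plus strand reads in both libraries together, which are not in the 49 and 72. *Mir666* was the only miRNA gene with at least 10 reads in a library, 11 in ESCs and 9 in NPCs. Reads were found directly behind the hairpins' 3p arms. In 47 hairpins with both arms placed, 25 reads in ESCs and 26 in NPCs started 1 to 5 nt after the last base of the 3p arm, which is 5.0 and 5.2 starts per nt. In the next 5 nt there were 0.4 and 0.6 starts per nt. From 22 to 1 nt before the last base of the arm there were 0.5 and 0.86. The starts 1 to 5 nt after the arm came from 13 hairpins and 15 positions. miR-666-3p had 11 in ESCs and 8 in NPCs at 1 position, and without it 14 and 18 remained. miR-431-3p, opposite *Rtl1*, had 0 and 8, and miR-127-3p, also opposite *Rtl1*, had 2 and 3. Downstream of the snoRNA genes, miR-379-3p had 3 in ESCs and 1 in NPCs, and miR-134-3p 4 and 0. Counted over the whole miRNA gene, *Mir431* had 0 reads in ESCs and 9 in NPCs, at least 2.91-fold higher if the ESC value is set to the 3 reads that a count of 0 allows and the 9 reads are taken as exact. The lower limit of the counting interval of this fold was 1.92. *Mir382* had 0 and 6, at least 1.94-fold higher in the same way, with a lower limit of 1.14. These were the only miRNA genes of the 57 whose counting interval of the ratio lay on 1 side of 1, and both were named after their values were seen. The reads of each began at 3 positions, and with each position counted once the interval of the fold held 1, with a lower limit of 0.342. Most of the starts behind the 3p arms lay 2 to 4 nt after the last base, 22 of 25 in ESCs and 17 of 26 in NPCs. The libraries were fragmented with RNase III, an enzyme of the same family as Drosha, and which enzyme made these ends was not tested. The ratio of the starts was 1.01-fold (0.560 to 1.82).

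**Figure D4:**
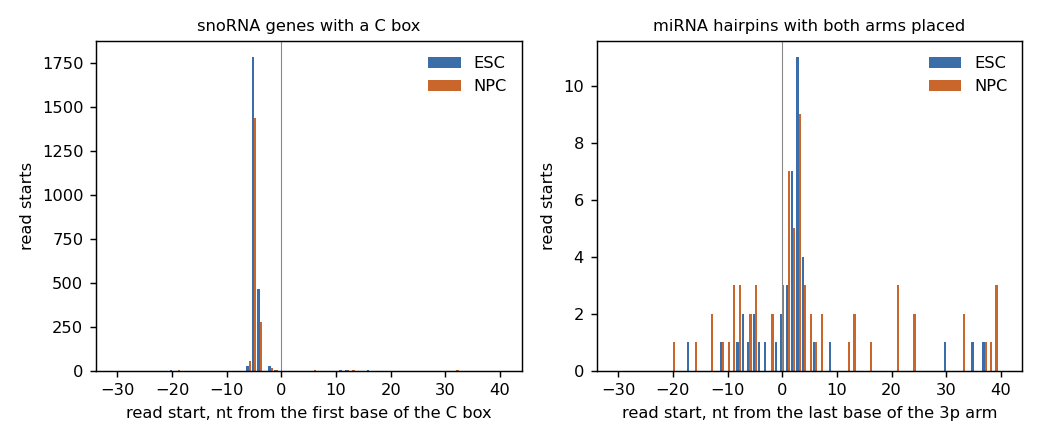
Number of read starts (y axis) in ESCs and NPCs against the distance in nt from the first base of the C box of snoRNA genes (left) and from the last base of the 3p arm of 47 miRNA hairpins (right). On the left, 97.2% and 96.4% of the reads start 4 to 6 nt before the box, and on the right 25 and 26 starts lie 1 to 5 nt after the arm.

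The paternally expressed genes had few reads in these libraries, from which polyadenylated RNA had been depleted. Their counts and ratios do not measure their polyadenylated mRNA. *Dlk1* (ENSMUSG00000040856.11, chr12:110691033-110701546, plus strand) had 2 ESC and 8 NPC reads, a 3.88-fold ratio whose interval (0.775 to 37.5) holds 1. *Rtl1* (ENSMUSG00000085925.2, chr12:110827404-110838540, minus strand) had 0 reads on its own strand in both libraries, which allows up to 0.702 RPM in ESCs and 0.682 RPM in NPCs. All reads over *Rtl1* were therefore those of the opposite strand. *Dio3* (ENSMUSG00000075707.4, chr12:111517278-111519307, plus strand) had 2 ESC and 31 NPC reads, or 0.231 and 3.47 RPKM. This 15.0-fold (3.83 to 130) ratio was the highest of the 5 genes with a ratio, and the 31 reads began at 21 positions. With each start position counted once, the log2 ratio was 3.12 (1.09 to 6.26) for *Dio3*, against 3.91 with all reads, and 1.31 (-1.17 to 4.65) for *Dlk1*, against 1.96. *Dio3os*, the RNA gene on the other strand beside *Dio3*, had 0 and 5 reads. The nearest coding genes with reads outside the locus had other values. *Begain*, before *Dlk1*, had 3 reads in ESCs and 2 in NPCs, while *Ppp2r5c*, a phosphatase subunit gene after *Dio3*, had 759 and 450, a log2 ratio of -0.80 (-0.97 to -0.63). Among the 9 of the 11 annotated flanking genes with at least 10 reads, 2 were more than 2-fold higher in NPCs and 0 lower, beside 25.5% and 13.3% among all genes, with a median log2 ratio of 0.37. *Hsp90aa1* had the most reads (5372 and 4311) and *Wars*, a tRNA synthetase gene, the highest ratio (236 and 1118 reads, log2 ratio 2.20).

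Imprinted genes elsewhere in the genome were mostly higher in NPCs. Of the 19 annotated, 17 had at least 10 reads. Among these, 13 were more than 2-fold higher and 0 more than 2-fold lower, beside 25.5% and 13.3% among all genes, with a median log2 ratio of 2.12. *Peg10*, a retrotransposon-derived gene of the placenta, had the most reads, 1281 in ESCs and 11130 in NPCs. The growth factor gene *Igf2* had the highest log2 ratio, 4.20 (3.95 to 4.46), from 136 and 2574 reads. *Snrpn* had the lowest, -0.26 (-0.61 to 0.09), from 152 and 131 reads. For comparison, *Dio3* had a log2 ratio of 3.91 and *Meg3* exons one of 0.29. The higher values of these imprinted genes and those of the endoderm markers were in the same library, and the part of the endoderm signal in them was not tested.

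A list of 16 regulators of imprints and DNA methylation, all with at least 10 reads, had a median log2 ratio of 0.06. In NPCs 1 was more than 2-fold higher and 3 more than 2-fold lower, beside 25.5% and 13.3% among all genes. The 3 lower genes were *Tet1*, *Tet2* (587 and 195 reads) and *Dppa3* (15 and 7 reads). *Trim28*, the corepressor that holds imprints with Zfp57, had the most reads, 3057 and 3244. *Dnmt3b*, a de novo DNA methyltransferase, had 137 and 640 reads and a log2 ratio of 2.18 (1.91 to 2.46). *Tet1*, which oxidises methylated DNA, had 2556 and 743 reads and a log2 ratio of -1.83 (-1.94 to -1.71).

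Around the paternally expressed genes, the Notch pathway, to which *Dlk1* is related, had 4 of 16 genes more than 2-fold higher and 6 more than 2-fold lower in NPCs, beside 25.5% and 13.3% among all genes, with a median log2 ratio of -0.66. *Rbpj*, its DNA-binding factor, had the most reads in both libraries together (1160 and 899). *Adam10*, a protease that cuts Notch, had the highest ratio, from 151 and 1070 reads, and the ligand gene *Dner* the lowest, from 29 and 1. Among thyroid hormone genes, to which *Dio3* belongs, 7 of 10 had at least 10 reads, with 2 more than 2-fold higher, 1 lower and a median log2 ratio of 0.17. The thyroid counts are small and lie near the shares among all genes. The corepressor gene *Ncor1* had the most reads (453 and 602). The carrier gene *Ttr*, also an endoderm marker, had 0 and 37, and the receptor gene *Thra* the lowest log2 ratio, -1.63 (-2.38 to -0.93). The related deiodinase *Dio1* had 0 reads in both libraries and *Dio2* 0 and 2.

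**Figure D5:**
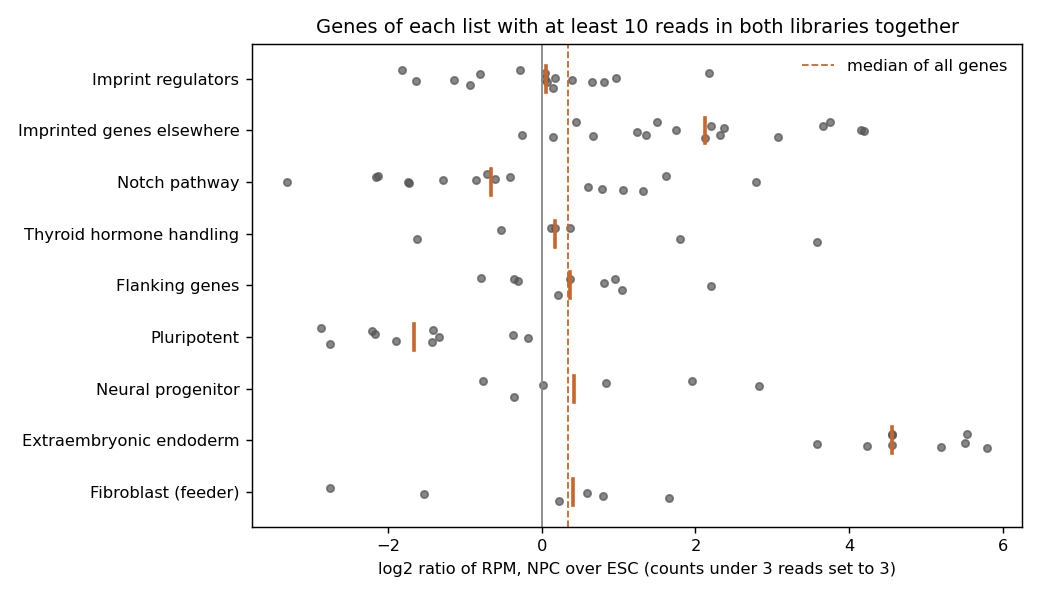
Log2 ratio of RPM, NPC over ESC (x axis, counts under 3 reads set to 3), of each gene with at least 10 reads in the lists of pathway genes and cell type markers (y axis). Points are genes, short bars list medians, the solid line 0 and the dashed line the median of all genes, 0.35. Endoderm markers (median 4.56) and imprinted genes elsewhere (median 2.12) lie highest, and pluripotency markers (median -1.67) lowest.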

How the data were processed

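NPA RNA of R1 ESCs and day 7 NPCs was sequenced on SOLiD, 1 library each. According to the labels and the study's methods, the authors depleted polyadenylated RNA with oligo(dT) in 3 rounds, ran 1 round of ribosomal RNA depletion, fragmented 2 µg of RNA with RNase III, kept 150 to 250 bp fragments, amplified them in 15 PCR cycles, aligned with Bowtie to mm9 without requiring a unique placement, and filtered mitochondrial, ribosomal and repeat reads. The deposited files list read placements with start, end, strand and a 48 nt sequence, and they hold no expression unit. The study's methods describe slightly longer reads. Which end was shortened was not tested, so the offsets of read starts may differ by a few nt from those of the RNA ends. Counts, RPM and RPKM were computed here from them (Python 3.11.15). A read was counted when at least 1 base overlapped a feature on its strand. Regions used its 5′ end, apart from exons, where overlap by at least 1 base decided. Intervals are exact Poisson, Clopper-Pearson or conditional binomial. The miRNA arms were located by sequence.

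The members, lists and tests were chosen with earlier results of these data known. Genes are named by a rule: the members, small RNA genes with at least 10 reads in a library, the 5 largest clusters per strand, each list's most abundant, highest and lowest gene, the nearest flanking genes and the 3 genes nearest *Meg3*. Other marker genes, the copy without reads, the miRNA arms and the box search were added after values were seen. Procedures were tested on simulated data. Alternatives are given at the end.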

Additional observations from a re-analysis of the deposited data

How the results depend on the processing

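No paired analysis was possible because each cell type has 1 library, and for the same reason no replicate could be left out. Values here are log2 ratios of NPC to ESC unless stated. *Rtl1*, with 0 reads in both libraries, has no ratio. With each start position and strand counted once, *Meg3* was -0.22, *Mirg* 0.51, the plus strand of the whole span 0.42, introns 0.095, gaps 0.85, the other plus strand reads 0.47 and the snoRNA reads -0.16. The plus strand share was then 90.5% in ESCs and 95.97% in NPCs, 1962 genes instead of 3795 were more than 2-fold higher in NPCs and 1916 instead of 1969 lower, the median of the 11 snoRNA genes was 0.091, AF357355 reversed to 0.091 and the SNORD113 copy at 110923172 to 0.31. With the 10 largest clusters left out of the library totals, the plus strand of the span reversed to -0.0093, the other reads were 0.66 and the snoRNA reads -0.49. Scaled by the median of gene ratios, the plus strand of the span reversed to -0.24, *Rian* was -0.27, the minus strand -1.19, introns -0.46, gaps -0.25, the other reads 0.43, the snoRNA reads -0.73 and genes more than 2-fold higher 2472, with 2844 lower. With reads that occur once in mm9, the minus strand was -0.36 and the plus strand share 99.5% in ESCs and 99.6% in NPCs. Without the minimum of 10 reads and with 1 read added in each library, a change of both choices at once, 3955 genes instead of 1969 were more than 2-fold lower and 4653 instead of 3795 higher. Leaving out the snoRNA genes and the unannotated cluster, a choice made after seeing the data, gave 0.43 for *Rian*, 0.77 for the plus strand, 0.41 for introns and 1.24 for gaps, against main values of 0.07, 0.09, -0.12 and 0.09. The cause of the other shifts was not tested. For the main results, 84 alternative values stayed within the counting interval or within 1.5 times the count, 27 moved beyond it and 2 reversed. Both of these 2 are values of the plus strand of the span, whose main interval lay on 1 side of 0. Values whose main interval held 0 were not counted as reversed when their sign changed. Among them were *Meg3*, *Rian*, introns, gaps and the median of the 11 snoRNA genes, each of which changed sign in at least 1 alternative. Low read numbers limit *Dlk1*, *Dio3* in ESCs and single miRNA genes, and multiple placement limits the minus strand.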

Other observations

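Beyond the annotated genes, the minus strand reads between *Mirg* and *Dio3* lay in 2 neighbouring clusters. The cluster at chr12:111133094-111133291 had 144 ESC and 85 NPC reads, and that at chr12:111132603-111133090 had 87 and 43. Only 2 of their reads had a sequence that occurs once in mm9, so their place is uncertain. Outside both clusters the span had 20 minus strand reads in ESCs and 15 in NPCs, with at most 2 reads in the next largest clusters. On the plus strand, 16 of the 19 reads of ESCs between *Mirg* and *Dio3* and 3 of the 4 reads of NPCs lay 197.788 to 204.759 kb past the end of *Mirg*, where no gene of the locus is annotated.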
